A study of Mus musculus with 4 samples.

Results

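The nuclear genes for the subunits of the 5 oxidative phosphorylation complexes were examined in mouse primary kidney tubular cells. They were chosen by name, as array probes whose gene name begins with Nduf, Sdh (Sdha to Sdhd), Uqcr, Cox4 to Cox8 or Atp5. Of 93 such genes on the array, 90 had a probe well above background on both arrays of at least 1 genotype, among 18388 genes that passed the same filter. These 90 were 80 subunits (38 of complex I, 4 of complex II, 8 of complex III, 15 of complex IV and 15 of complex V), 7 complex I assembly factors that share the Nduf prefix, and 3 genes set apart because they encode no subunit. The rule itself uses names and brightness, and it was set with earlier results of these data known. The other 3 genes, Cox7b2, Cox8b and Cox8c, were not well above background on any array.

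Total RNA of 2 wild type and 2 SerpinB2-/- samples was measured, each on a one-colour array of its own, to compare tubular cells with and without SerpinB2 (plasminogen activator inhibitor-2). All cells came from kidneys of male mice aged 8 weeks on the B6.J background, were grown in Promocell renal growth medium, and were exposed to PMA at 100 ng/ml. PMA is a phorbol ester, a direct activator of protein kinase C. No untreated cells were measured, so every difference below is one between PMA-treated cultures. The labels leave unstated how Serpinb2 was deleted and whether a sample is a culture or an animal of its own. The p-values below thus reflect the spread between these 4 samples alone, which may be technical, and with 2 arrays against 2 the smallest exact two-sided p for a single gene is 0.333.

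Oxidative phosphorylation turns the energy of nutrients into ATP in the inner mitochondrial membrane. Complexes I and II pass electrons to ubiquinone, complex III passes them on to cytochrome c, complex IV hands them to oxygen, and complex V uses the proton gradient built by complexes I, III and IV to make ATP. Kidney tubules depend on this pathway to power solute transport, while cultured tubular cells often rely more on glycolysis. A few subunits exist as paired isoforms, one found in most tissues and one restricted to muscle, lung, testis or low-oxygen states.

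Of the 80 subunits, 2 differed between the genotypes past the threshold: Cox6a2, a heart and skeletal muscle isoform of complex IV, rose in SerpinB2-/- cells, and Ndufa4l2, a paralog of the subunit Ndufa4, fell. This is 2.50% of the subunits, against 15.3% of all genes tested, by limma with Benjamini-Hochberg adjustment over 18388 genes and a threshold of 0.05. Both genes had dim probes, with normalised signals of at most 106 units. The normalised signal is the scanner intensity after each array was scaled to a common 75th percentile. Among the other 78 subunits, the log2 change (SerpinB2-/- minus wild type) lay between -0.25 and 0.21, so the largest was 1.19-fold.

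The median log2 change of the 80 subunits was 0.04, beside 0.0066 for all genes, and 62 subunits had a positive change under scaling by the 75th percentile. The groups did not overlap for 34 subunits, 29 of them higher and 5 lower, whereas 64.2% of all genes had groups that did not overlap (32.6% higher and 31.6% lower). The sign of the subunits' median depended on the scaling: it was -0.0006 with the 75th percentile of detected probes and -0.02 with quantile normalization, where 40 and 31 subunits were positive. Scaling by the array median put the median of all genes at 0.14 and that of the subunits at 0.17, which is 0.03 above all genes. This distance is the same with either 75th percentile by construction, since each of these scalings shifts all genes of an array alike. With quantile normalization the subunits lay below all genes, by -0.03. Single arrays also moved the subunits' median. It was 0.08 without wild type replicate 1 or SerpinB2-/- replicate 1, where 68 and 65 subunits were positive. It was 0.02 without SerpinB2-/- replicate 2 and 0.0073 without wild type replicate 2, where 48 and 45 were positive. The median of all genes lay between -0.0044 and 0.02 in these 4 fits. The median log2 change of complex III was -0.0040 without wild type replicate 2, and the median log2 change of complex IV was -0.01 without wild type replicate 2 or SerpinB2-/- replicate 2. With quantile normalization the medians were -0.013, -0.032, -0.028 and -0.018 for complexes I, III, IV and V, and 0.0052 for complex II. With the 75th percentile of detected probes they were -0.0026 and -0.017 for complexes I and IV. Under that scaling, complexes II, III and V had medians of 0.013, 0.0091 and 0.0094. No direction can be given for the subunits as a group.

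**Figure D1:**
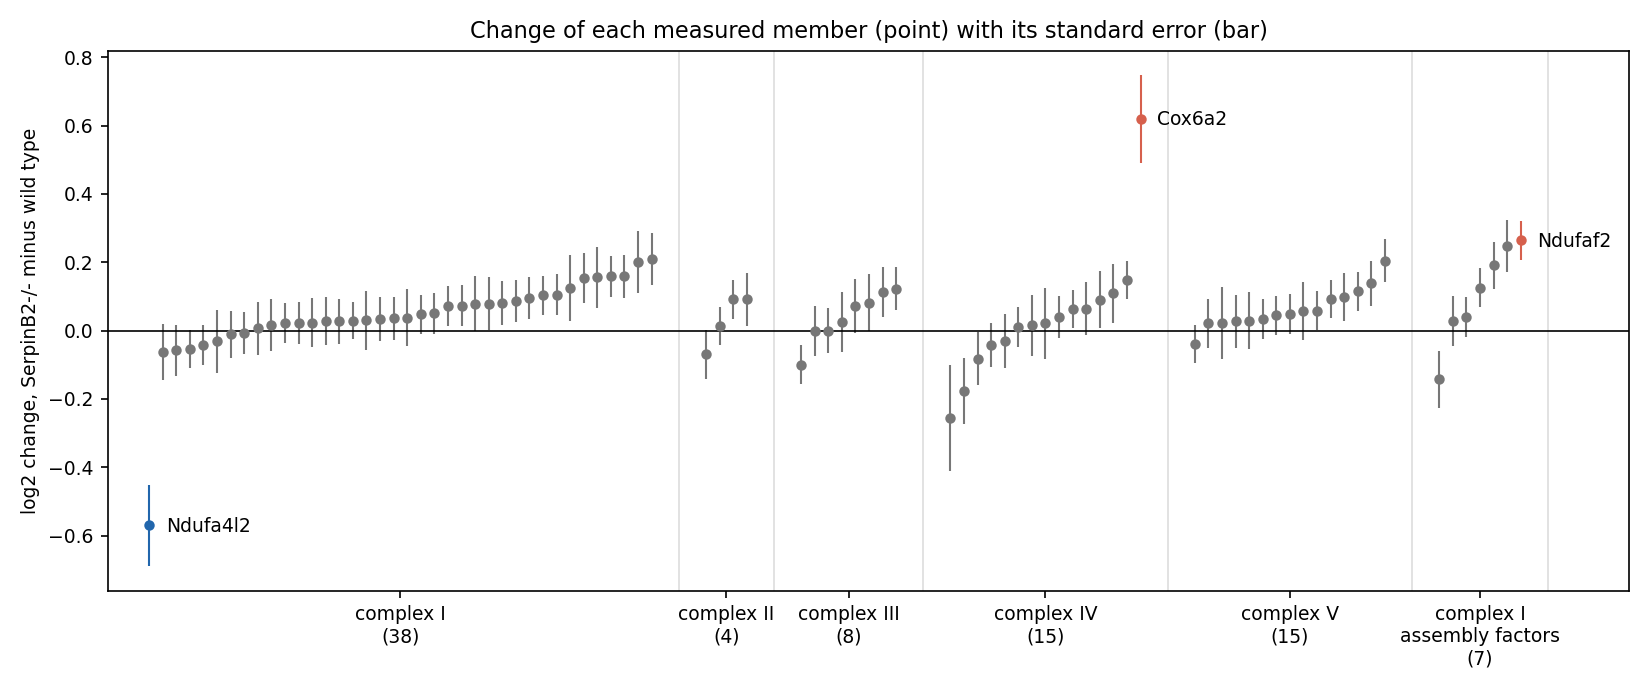
Each point is 1 measured member and its bar is 1 standard error from limma. The vertical axis is the log2 change, SerpinB2-/- minus wild type, after scaling by the 75th percentile. Members are ordered by change within each complex (number measured in parentheses). Ndufa4l2, Cox6a2 and the assembly factor Ndufaf2 are coloured because they passed the threshold; the other 78 subunits lie between -0.25 and 0.21.

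Serpinb2 itself gave 3047 and 3383 units in wild type. In SerpinB2-/- cells it gave 5.88 and 7.21, neither well above background, and was thus at least 123-fold lower. As the deleted gene, which passed the filter through wild type alone, it is given without a test. The bound takes, for each SerpinB2-/- array, the signal of the dimmest probe well above background, or that of the Serpinb2 probe if higher. The 75th percentile of the signal was 1903 to 2144 units on the 4 arrays, and 23409 to 24476 probes per array were well above background. Across all genes 2813 passed the threshold, 1089 higher (5.92%) and 1724 lower (9.38%). This split was 4357 higher and 1228 lower with median scaling, and 846 higher and 2125 lower with the 75th percentile of detected probes.

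Complex I, NADH dehydrogenase, is the entry point for electrons from NADH. All 38 of its named genes on the array were measured. Of these, 1 fell, none rose, and the median log2 change was 0.04, with 30 positive and 8 negative values. With 1 called gene of 38 (2.63%), its share lay below the 15.3% of all genes. The groups did not overlap for 16 subunits that were higher and 2 that were lower in SerpinB2-/- cells, beside 32.6% and 31.6% of all genes.

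Among the genes named for complex I only Ndufa4l2 passed the threshold, and it fell. It was placed in complex I by its name alone, as was its paralog Ndufa4. Ndufa4l2 is known to be induced in low oxygen and to restrain respiration. Its probe lies on chromosome 10 at 126954149 to 126954208 (mm9, the build of the files). It gave 106 and 85.3 units in wild type against 62.0 and 66.2 in SerpinB2-/- cells. Both wild type arrays lay above both SerpinB2-/- arrays, though the wild type pair was spread more widely than the SerpinB2-/- pair. Its log2 change was -0.57 ± 0.12 (SE, n = 2 and 2), or 1.48-fold lower, with a 95% interval of -0.88 to -0.26 (limma adjusted p = 0.0420). Here and below, standard errors and intervals are limma's moderated ones, which draw each gene's variance towards a value shared by all genes. Normexp background correction was run on the mean spot signal without the scanner's own processing, and added an offset of 50 to every signal. An offset weighs most on dim signals, and the parts of this setting were not tested apart. The call was lost with normexp (log2 change -0.28, limma adjusted p = 0.115) and with quantile normalization (-0.43, adjusted p = 0.0893). It was also lost without wild type replicate 1 (adjusted p = 0.0914), SerpinB2-/- replicate 1 (0.104) or SerpinB2-/- replicate 2 (0.0783).

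Ndufa4, the paralog in most tissues, which carries a complex I name but is now counted with complex IV, gave 43376 and 38268 units in wild type against 41846 and 47181 in SerpinB2-/- cells. These groups overlapped. Its log2 change was 0.13 ± 0.10 (limma adjusted p = 0.417), and the interval did not reach the change of Ndufa4l2. The probes for the 2 paralogs share no run longer than 7 bases, and the first 30 of their 60 bases are shown because the paralogs gave opposite signs; no letters are in capitals.
Ndufa4l2 probe: tgtccctggggatcaaacagaagcagccgt
Ndufa4 probe: ccgcacaattttccacttaagcaggaaata

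The core subunits of complex I hold the flavin and the iron-sulphur clusters. The 7 encoded in the nucleus had a median log2 change of 0.03, and none passed the threshold. Ndufv2 and Ndufs1, named next, had the highest values of these. Ndufv2, an iron-sulphur subunit of the electron input module, had a log2 change of 0.16 ± 0.06 (limma adjusted p = 0.155), with 30463 and 28479.9 units in wild type against 33148 and 32629 in SerpinB2-/- cells. Its groups did not overlap, but it did not pass the threshold. Ndufs1, the largest subunit of the complex, gave 25734 and 26745 units in wild type against 28714 and 26802 in SerpinB2-/- cells, a log2 change of 0.08.

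The 10 Ndufb genes, accessory subunits of the membrane arm, had a median log2 change of 0.08, with 9 positive values, and 8 of them had SerpinB2-/- arrays above both wild type arrays, as did 32.6% of all genes. None passed the threshold. Ndufb11, whose product sits in the membrane arm, had the highest value of these, 0.20 ± 0.09 (limma adjusted p = 0.195), from 61702 and 53405 units in wild type against 64125 and 67824 in SerpinB2-/- cells. With the 75th percentile of detected probes every one of these values is lower by the same shift as all other genes.

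Ndufa5, an accessory subunit of the matrix arm, had the highest change of complex I, 0.21 ± 0.08 (limma adjusted p = 0.133), from 42695 and 38454 units in wild type to 45702 and 48078 in SerpinB2-/- cells. Ndufa13, also known as GRIM-19, had the strongest probe signal of the complex and gave 144142 and 140259 units in wild type against 135952 and 140360 in SerpinB2-/- cells. Its groups overlapped, and a second probe for it had the opposite sign (0.02 against -0.04). Ndufc2, an accessory subunit of the membrane arm, was lower on both SerpinB2-/- arrays by a log2 change of -0.05 ± 0.06, less than 1 standard error. The map of levels by array shows the subunits of complex I with the pair of arrays of each genotype.

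**Figure D2:**
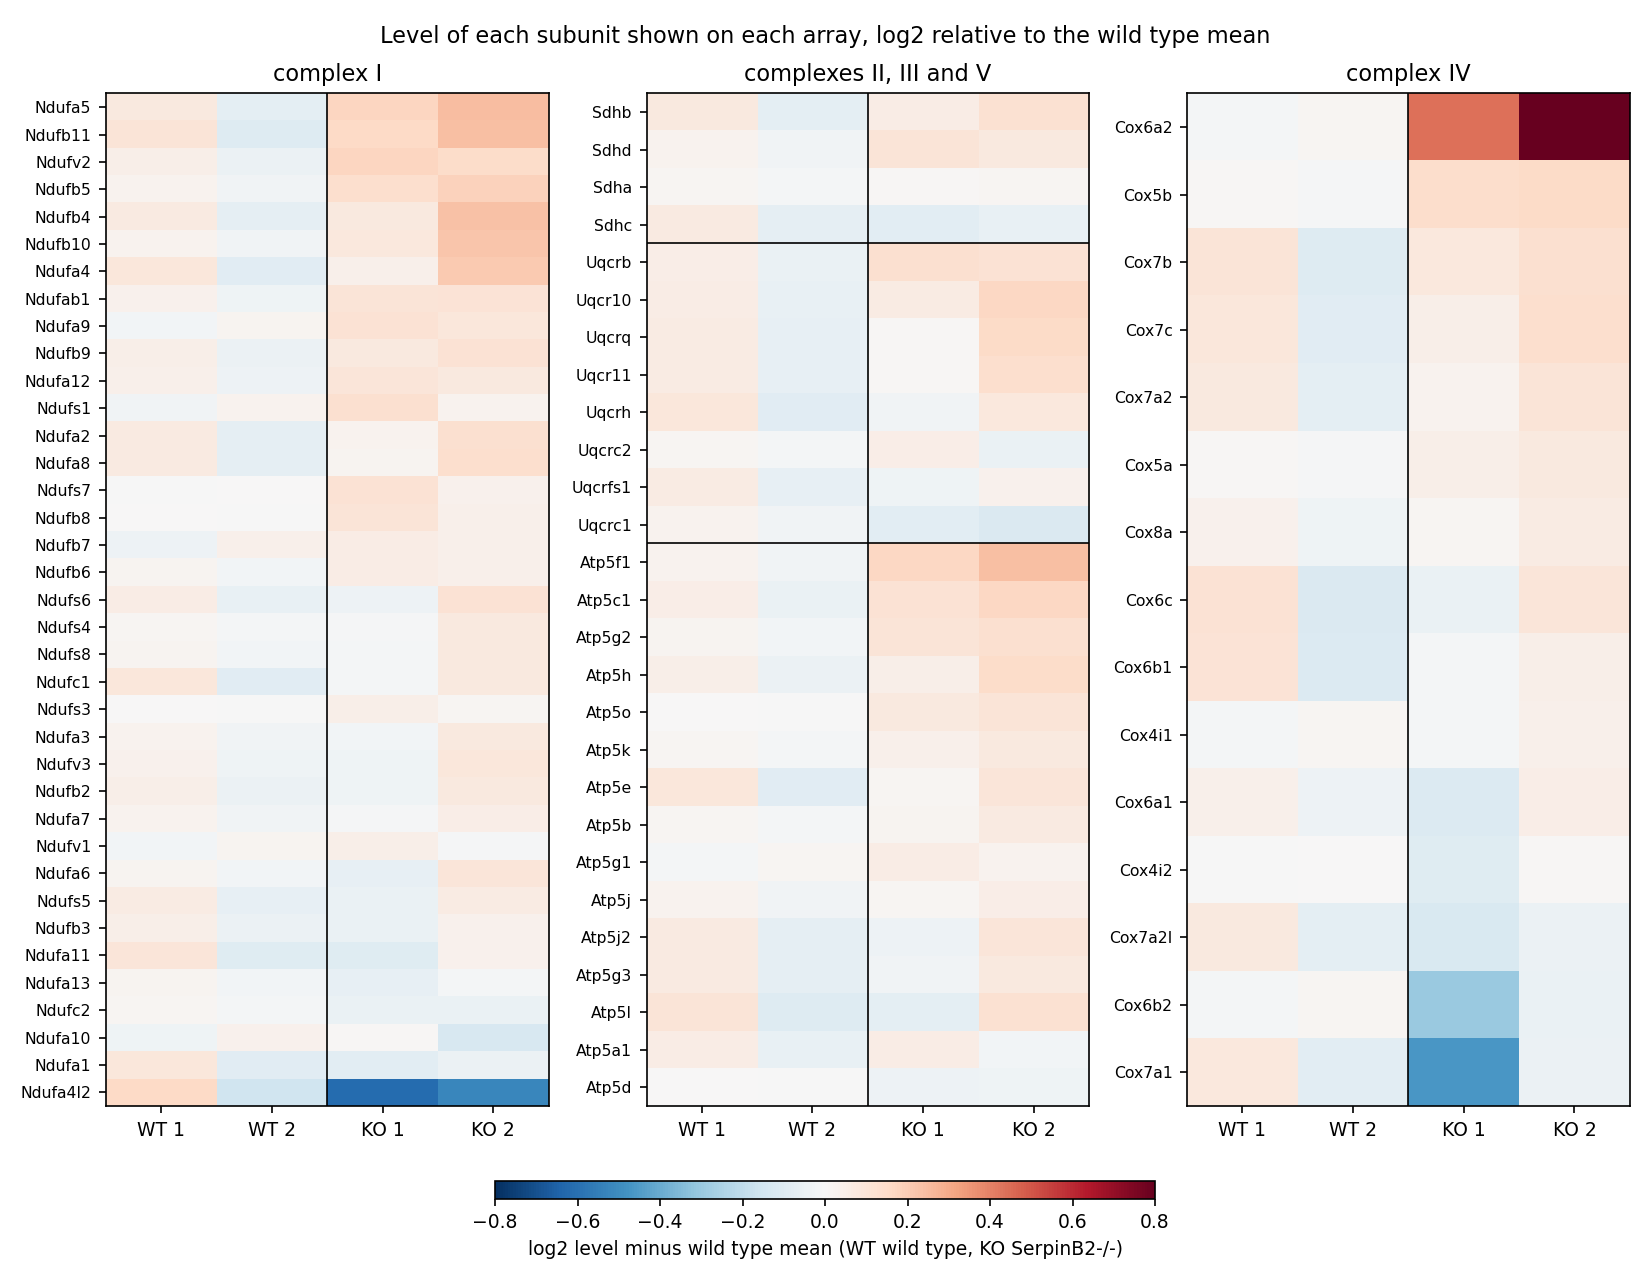
Colour gives the level of each subunit shown (all but 1 of complex I) on each array, as log2 relative to the mean of the 2 wild type arrays (WT, wild type; KO, SerpinB2-/-), with gene names as on the array and subunits ordered by change within each complex; lines separate complexes II, III and V. Ndufa4l2 and Cox6a2 stand out on both SerpinB2-/- arrays, Cox7a1 and Cox6b2 are low mainly on SerpinB2-/- array 1, and most other subunits stay within pale shades on all 4 arrays.

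Complex II, succinate dehydrogenase, links the tricarboxylic acid cycle to the respiratory chain and is encoded wholly in the nucleus. None of its 4 subunits passed the threshold (lowest limma adjusted p = 0.331), and their median log2 change was 0.05. Sdha, the flavoprotein that oxidises succinate, gave 24887 and 24332 units in wild type against 24777 and 24902 in SerpinB2-/- cells, a log2 change of 0.01 ± 0.06. Sdhb, the iron-sulphur subunit, gave 63607 and 56975 units in wild type against 62738 and 65648 in SerpinB2-/- cells, a log2 change of 0.09 ± 0.08. The groups overlapped for both. Of the membrane anchors, Sdhc gave 20538 and 18615 units in wild type against 18478 and 18803 in SerpinB2-/- cells (log2 change -0.07 ± 0.07). The other anchor, Sdhd, gave 39344 and 37715 units in wild type against 41414 and 40654 in SerpinB2-/- cells (0.09 ± 0.06), and was the only one of the 4 with groups that did not overlap.

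Complex III, cytochrome bc1, moves electrons from ubiquinol to cytochrome c. None of its 8 measured subunits passed the threshold (lowest limma adjusted p = 0.247), with a median log2 change of 0.05 and a range of -0.10 to 0.12. Uqcrb, which contributes to ubiquinone binding, had the highest value at 0.12 ± 0.06, from 61982 and 57736 units in wild type against 65414 and 64838 in SerpinB2-/- cells. Uqcrc1, a core subunit, had the lowest at -0.10 ± 0.06, from 16655 and 16048 units in wild type against 15429 and 15095 in SerpinB2-/- cells. Neither gene's groups overlapped, and the 2 subunits lay on opposite sides of 0. Uqcrfs1, the Rieske iron-sulphur protein, had a log2 change of -0.00082 ± 0.07. Uqcrq, which had the strongest probe signal of the complex, gave 154276 and 140931 units in wild type against 148314 and 164301 in SerpinB2-/- cells, with overlap. Cyc1, the cytochrome c1 subunit that the naming rule does not catch, had a log2 change of 0.04 ± 0.08.

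Complex IV, cytochrome c oxidase, is the terminal oxidase and the complex with most tissue isoforms. Of its 18 named genes 15 were measured, 1 of these rose, none fell, and the median log2 change was 0.02. The gene that rose was Cox6a2, with its probe on chromosome 7 at 135349160 to 135349219 (mm9). It gave 54.5 and 55.8 units in wild type against 74.8 and 95.9 in SerpinB2-/- cells. The wild type pair was close together, and both SerpinB2-/- arrays lay above it, SerpinB2-/- replicate 2 more than replicate 1. The log2 change was 0.62 ± 0.13 (SE, n = 2 and 2), or 1.54-fold higher (limma adjusted p = 0.0413). The call was lost under normexp background correction (0.33, adjusted p = 0.117) and in the authors' deposited table of processed values tested the same way (0.59, adjusted p = 0.0521). It was also lost without wild type replicate 1 (0.60, adjusted p = 0.137) or wild type replicate 2 (0.64, adjusted p = 0.126).

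Cox6a1, the isoform in most tissues, gave 307299 and 290327 units in wild type against 276458 and 309337 in SerpinB2-/- cells, a log2 change of -0.03 ± 0.08 (limma adjusted p = 0.817). Its groups overlapped. Both probes are shown as their first 30 bases, again in lower case with no capitals, since the isoforms differed in call; they share no run longer than 4 bases.
Cox6a2 probe: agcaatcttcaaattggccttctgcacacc
Cox6a1 probe: ggaccacgaaaaccctttggatgctaagct

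The other tissue isoforms of complex IV did not pass the threshold. Cox4i1, the regulatory subunit of most tissues, gave 119772 and 122403 units in wild type against 119704 and 124379 in SerpinB2-/- cells (log2 change 0.01 ± 0.06). Its partner Cox4i2, known from lung and low oxygen, gave 239.5 and 241 units in wild type against 225 and 242 in SerpinB2-/- cells (-0.04 ± 0.06). The groups overlapped for both isoforms.

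Cox7a1, the isoform of heart and muscle, gave 612 and 543 units in wild type against 417 and 558 in SerpinB2-/- cells. The low value came from SerpinB2-/- replicate 1 alone, and the log2 change of -0.25 ± 0.16 had the largest standard error of all subunits (limma adjusted p = 0.311). Cox7a2, its counterpart in other tissues, had a change of 0.06 ± 0.08, and Cox7a2l, which helps to join complexes III and IV into supercomplexes, one of -0.08 ± 0.08. Cox6b2, the testis isoform, gave 1155 and 1178 units in wild type against 949 and 1122 in SerpinB2-/- cells (-0.18 ± 0.10, limma adjusted p = 0.262). Its groups did not overlap, and SerpinB2-/- replicate 1 was again the lower array. Cox6b1, the isoform of most tissues, had a change of 0.02 ± 0.09.

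Cox8a gave 0.04 ± 0.06 and Cox7b 0.11 ± 0.09 on the log2 scale, both with overlapping groups, while the muscle and testis isoforms Cox8b, Cox8c and Cox7b2 were not well above background in either genotype. Cox5b, a peripheral subunit of the matrix side that carries zinc, had the second highest change of complex IV at 0.15 ± 0.05 (limma adjusted p = 0.136). It gave 57059 and 56334 units in wild type against 62519 and 63178 in SerpinB2-/- cells, so both pairs were tight and did not overlap. The plot of paralogous subunits sets these isoforms side by side.

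**Figure D3:**
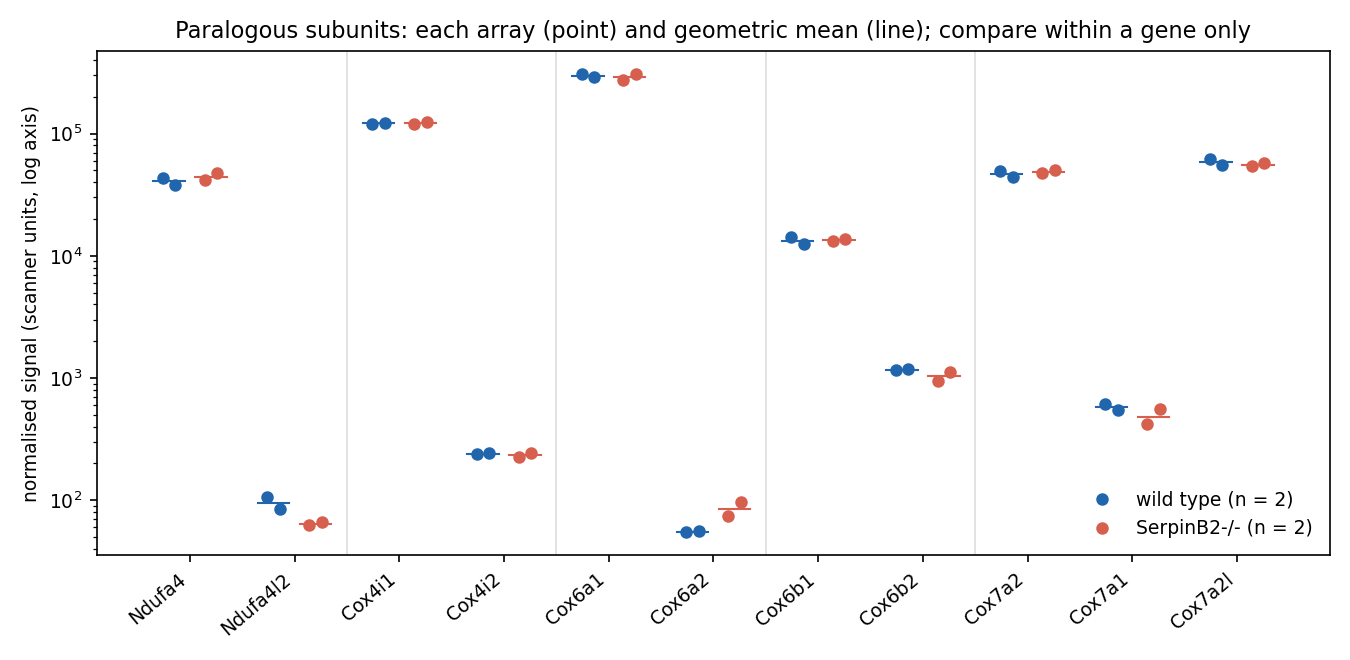
Points are the normalised signal of each array in scanner units on a log axis, and lines are geometric means (blue, wild type; red, SerpinB2-/-; n = 2 each); signals of different genes come from different probes and do not compare. The groups separate for Ndufa4l2, which is lower, and Cox6a2, which is higher in SerpinB2-/- cells, and by less for Cox6b2, while the pairs of Ndufa4, Cox4i1, Cox4i2, Cox6a1, Cox6b1, Cox7a1, Cox7a2 and Cox7a2l overlap.

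Complex V, ATP synthase, makes ATP with a rotor driven by protons. None of its 15 measured subunits passed the threshold (lowest limma adjusted p = 0.0958). The median log2 change was 0.05 and 14 values were positive, a count that belongs to scaling by the 75th percentile, as above. Groups did not overlap for 7 subunits that were higher and 1 that was lower in SerpinB2-/- cells, beside 32.6% and 31.6% of all genes. The lowest adjusted p was that of Atp5f1 (Atp5pb in RefSeq), the peripheral stalk subunit b, which gave 25688 and 24668 units in wild type against 28211 and 29796 in SerpinB2-/- cells, a log2 change of 0.20 ± 0.06.

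The 5 subunits of the catalytic part of complex V (Atp5a1, Atp5b, Atp5c1, Atp5d and Atp5e) had a median log2 change of 0.05. Atp5b, the catalytic beta subunit and the strongest probe signal of complex V, gave 189763 and 186441 units in wild type against 191093 and 198113 in SerpinB2-/- cells, a log2 change of 0.05 ± 0.06. Atp5c1, the gamma subunit of the rotating shaft, had a change of 0.14 ± 0.07 (limma adjusted p = 0.214), and Atp5d, the delta subunit, one of -0.04 ± 0.05, the only negative value of the complex.

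The 10 subunits of the membrane part and stalk of complex V had a median log2 change of 0.05 and values from 0.02 to 0.20. The c ring that carries protons is encoded by 3 genes with the same mature protein. Atp5g1 gave 71002 and 72409.5 units in wild type against 74837 and 73048 in SerpinB2-/- cells, a change of 0.04 ± 0.06, and a second probe for it gave -0.17. Atp5g2 gave 153006 and 147835 units in wild type against 161512 and 164350 in SerpinB2-/- cells, a change of 0.12 ± 0.06 (limma adjusted p = 0.229). Atp5g3 gave 135676 and 123018 units in wild type against 126764 and 136629 in SerpinB2-/- cells, a change of 0.03 ± 0.08. The groups overlapped for Atp5g3 and not for the other two. Atp5md and Atp5mpl, small subunits named outside the rule, had changes of 0.09 ± 0.09 and 0.03 ± 0.10.

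The complex I assembly factors do not stay in the finished enzyme. Of 7 measured, 1 rose (14.3%, close to the 15.3% of all genes), none fell, and the median log2 change was 0.13. Ndufaf2, a chaperone bound to a late intermediate of complex I, rose: it gave 8522 and 8816 units in wild type against 10447 and 10368 in SerpinB2-/- cells. Both pairs were tight and well apart, with a log2 change of 0.26 ± 0.06, or 1.20-fold (limma adjusted p = 0.0441; chromosome 13, 108843015 to 108843074, mm9). The call was lost with the 75th percentile of detected probes (adjusted p = 0.0600), with quantile normalization (adjusted p = 0.0635) and without any 1 of the 4 arrays (adjusted p from 0.132 to 0.175).

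Ndufaf4, an early assembly factor, gave 7007 and 7461 units in wild type against 8995 and 8184 in SerpinB2-/- cells, a change of 0.25 ± 0.08 (limma adjusted p = 0.0949). A second, dimmer probe for Ndufaf4 gave 0.39 and did pass the threshold when every probe was tested by itself (adjusted p = 0.0203). Ndufaf4 was the only member with a further probe past the threshold. Of the 30 members with more than 1 measured probe, 3 had probes that differed in sign (Atp5g1, Ndufa13 and Ndufv3). Ndufaf3, which works with Ndufaf4, lay on the other side of 0 at -0.14 ± 0.08 (adjusted p = 0.294). The 3 genes set apart were the pseudogene Atp5c1-ps (0.12), Atp5s (Dmac2l in RefSeq, -0.22) and Atp5sl (Dmac2, -0.11), and none passed the threshold. The probe of Atp5c1-ps may share transcripts with Atp5c1, so its value is uncertain.

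The precision of the arrays set how far the absence of calls reaches. The median standard error was 0.07 for the subunits and for all genes alike. Of all 80 subunits, 68 had a 95% interval that stayed within a 1.25-fold change in either direction, 77 within 1.5-fold and all 80 within 2-fold. The 2 called subunits entered the last count only. Over all genes tested, the shares were 47.6%, 83.5% and 95.6%. The lowest and highest bounds among the 78 subunits short of the threshold were -0.66 and 0.43 on the log2 scale. The intervals rest on 2 arrays per genotype and on limma's moderated standard errors, which lie closer together than those from each gene's own spread.

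Between single arrays, the subunits' absolute log2 difference had a median of 0.08 within wild type and 0.08 within SerpinB2-/- cells, against 0.06 to 0.12 for the 4 pairs across genotypes. For all genes the same quantity was 0.08 within each genotype and 0.14 to 0.16 across genotypes. The subunits thus varied between genotypes about as much as between replicates, while genes in general varied more. Relative to each gene's mean over the 4 arrays, the subunits' median was 0.01 on wild type array 1 and -0.06 on wild type array 2. It was -0.0028 on SerpinB2-/- array 1 and 0.06 on SerpinB2-/- array 2. The groups overlapped in this measure, and the extremes were 1 array of each genotype.

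NRF1, nuclear respiratory factor 1, is a transcription factor known to bind the promoters of many of these genes. In the RefSeq table of promoters (GRCm38.p6), 66 of the 80 subunits were matched, and the 250 bases before each start were searched on both strands for the letters GCGCA and GCGC with any 1 base between them. Ndufa4l2 and Cox6a2 were not among those matched. The motif was present for 13 of the 66 subunits (19.7%) and for 4.23% of 27025 genes in the table. The table was not limited to the genes tested here, so these shares have an unlike background. An ETS motif, CCGGAAG, was present for 18.2% of the matched subunits and 7.83% of the genes in the table. The letters TATAAA were present for 7.58% and 14.3%. A cAMP response element, TGACGTCA, was present for 6.06% and 1.77%. None of these motifs is contained in another. A match is a description, not a measured binding site.

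The subunits with the NRF1 letters had a median log2 change of 0.08 (range -0.03 to 0.21), and the 53 without them 0.04, both under scaling by the 75th percentile and with no test. For the ETS letters (12 subunits) the medians with and without them were 0.04 and 0.04. They were 0.03 and 0.04 for TATAAA (5 subunits), and -0.02 and 0.05 for the cAMP response element (4 subunits). The last gap was wider than that for the NRF1 letters and of the opposite sign. The stretches below are shown because they hold the same motif in subunits with higher values and in a pair with values near 0; capitals mark the motif on either strand, and each is written 5′ to 3′ along its gene's strand. They lie at chr6:24527692-24527731 (Ndufa5), chr16:37654423-37654462 (Ndufb4, 1 of 3 matches), chr2:10080433-10080464 (Atp5c1), chr15:102671065-102671104 (Atp5g2), chr13:74350271-74350310 (Sdha, 1 of 3 matches) and chr5:115349051-115349090 (Cox6a1, 1 of 2 matches), in GRCm38.p6 and all on the minus strand.
Ndufa5: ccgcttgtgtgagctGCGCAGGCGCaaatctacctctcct
Ndufb4: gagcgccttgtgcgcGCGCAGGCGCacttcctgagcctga
Atp5c1: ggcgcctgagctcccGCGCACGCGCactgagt
Atp5g2: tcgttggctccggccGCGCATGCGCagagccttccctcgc
Sdha: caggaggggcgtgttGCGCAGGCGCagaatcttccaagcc
Cox6a1: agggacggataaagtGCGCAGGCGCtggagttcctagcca

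Ndufa5 and Ndufb4 had changes of 0.21 and 0.16, Atp5c1 and Atp5g2 of 0.14 and 0.12, and Sdha and Cox6a1 of 0.01 and -0.03, so the same letters occurred beside the highest subunit short of the threshold and beside values near 0. Nrf1 itself gave 1971 and 2001 units in wild type against 2540 and 2684 in SerpinB2-/- cells and rose by 0.40 ± 0.06 on the log2 scale (limma adjusted p = 0.0213). Its value was only 0.09, short of the threshold, when all its probes were averaged (adjusted p = 0.406).

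The subunits encoded in the mitochondrial genome, which form the cores of complexes I, III, IV and V, were measured for 10 of 13 genes. The files place the probe named ND3 on chromosome 1 and the other probes on the mitochondrial chromosome, so the source of the ND3 signal is uncertain. None passed the threshold and their median log2 change was -0.05, beside 0.04 for the nuclear subunits. ND5 had the lowest value at -0.27 and ND6, which is read from the opposite strand of the mitochondrial genome, the highest at 0.25, both of complex I.

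Among 16 genes of electron carriers and ubiquinone synthesis, 1 rose and 1 fell, with a median of 0.09. Pdss1, which begins the ubiquinone side chain, rose by 0.52, and Coq8a, an atypical kinase of ubiquinone synthesis, fell by 0.58. The probe of Coq8a was dim, with 63.1 and 57.7 units in wild type against 35.9 and 45.1 in SerpinB2-/- cells, and its change was -0.22 with normexp correction (limma adjusted p = 0.221). Of 37 measured assembly factors of the complexes outside the Nduf name, 1 rose, none fell, and the median was 0.03. The riser was Coa7, a complex IV assembly factor, at 0.26. Of 18 regulators of mitochondrial gene expression, 3 rose and none fell, with a median of 0.13: Nrf1, Mterf3 (0.33), which regulates mitochondrial ribosomes and transcription, and Tfam (0.32), which packages mitochondrial DNA. With 3 of 18 called, this list was close to the 15.3% of all genes.

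The next lists are likewise read against the 15.3% of all genes called. Of 11 measured carriers and the ATP synthase inhibitor, 1 rose and 2 fell, with a median of 0.07. Slc25a5, an ADP/ATP carrier, rose by 0.31, while the uncoupling proteins Ucp3 and Ucp2 fell by 0.42 and 0.35. Of 13 enzymes of the tricarboxylic acid cycle, 1 rose, Idh3a by 0.31, with a median of 0.03. Of 16 glycolysis genes, 1 fell, Ldhb by 0.36, with a median of 0.02. The calls named in these lists, all by limma at the same threshold, were each lost in between 5 and 11 of 19 alternative settings. The plot of related lists shows them beside the subunits.

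**Figure D4:**
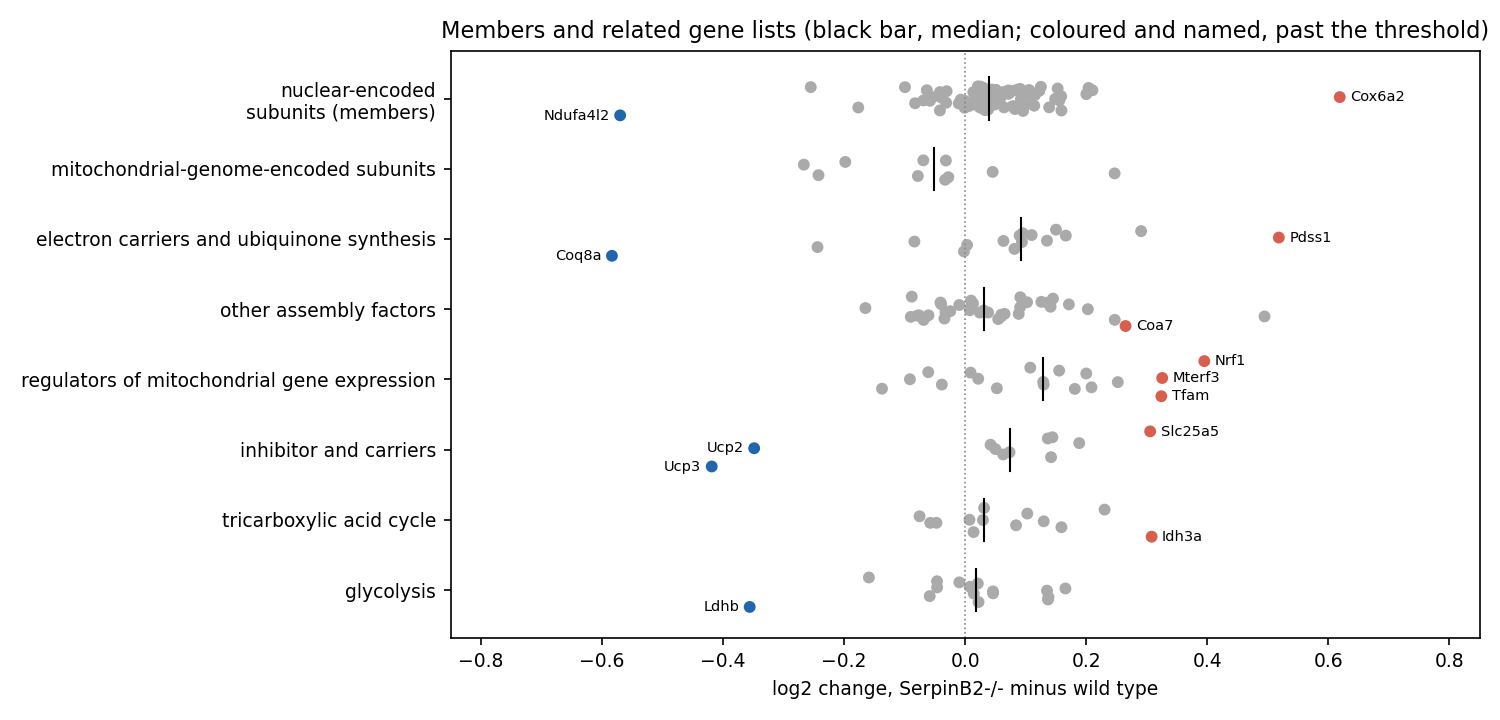
Each point is 1 gene, the horizontal axis is its log2 change (SerpinB2-/- minus wild type), and black bars are list medians, which run from -0.05 for the mitochondrial-genome-encoded subunits to 0.13 for the regulators. Coloured, named points passed the threshold, 2 of them among the 80 subunits.

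Markers of cell types also differed between the genotypes, where 5.92% of all genes rose and 9.38% fell. Of 9 markers of tubular epithelium, all measured, 6 fell, and their summed level was 292 to 293 times the 75th percentile in wild type and 229 to 240.1 in SerpinB2-/- cells. Of 9 measured proximal tubule markers, 1 rose and 1 fell, with sums of 4.59 to 4.92 and 4.84 to 4.93, and Slc5a2 was not well above background. Of 10 leukocyte markers 5 fell, with sums of 11.1 to 12.0 and 9.65 to 9.90. Of 7 endothelial markers 6 fell, with sums of 4.55 to 4.63 and 2.88 to 3.51, and Tek was not well above background. Of 7 fibroblast and pericyte markers 2 rose, with sums of 66.6 to 77.8 and 87.5 to 96.7, and Lum was not well above background. All 8 proliferation genes rose, with sums of 31.2 to 31.4 and 43.5 to 46.9. The brightest probes weigh most in each sum, so a sum can hide changes of dimmer ones. Kdr, the brightest endothelial probe, changed by 0.05. The median log2 changes of the lists, in the order given, were -0.29, 0.01, -0.42, -1.37, 0.35 and 0.60. In such bulk samples, fewer cells of a type and less RNA per cell cannot be told apart. The part of these markers in the values of Ndufa4l2, Cox6a2 and Ndufaf2 was not tested.

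Processing moved both the number of subunits called and their distance from all genes. The subunits' median minus that of all genes ran from -0.03 with quantile normalization to 0.07 without wild type replicate 1. Of the alternatives, median scaling called most subunits, 15 of 80 (18.8%), against 30.4% of all genes in the same fit, and 14 of the 15 were higher. The rest called between 0 and 3 subunits. In every fit shown in the plot of settings, the share of subunits called was below that of all genes, or both were 0.

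**Figure D5:**
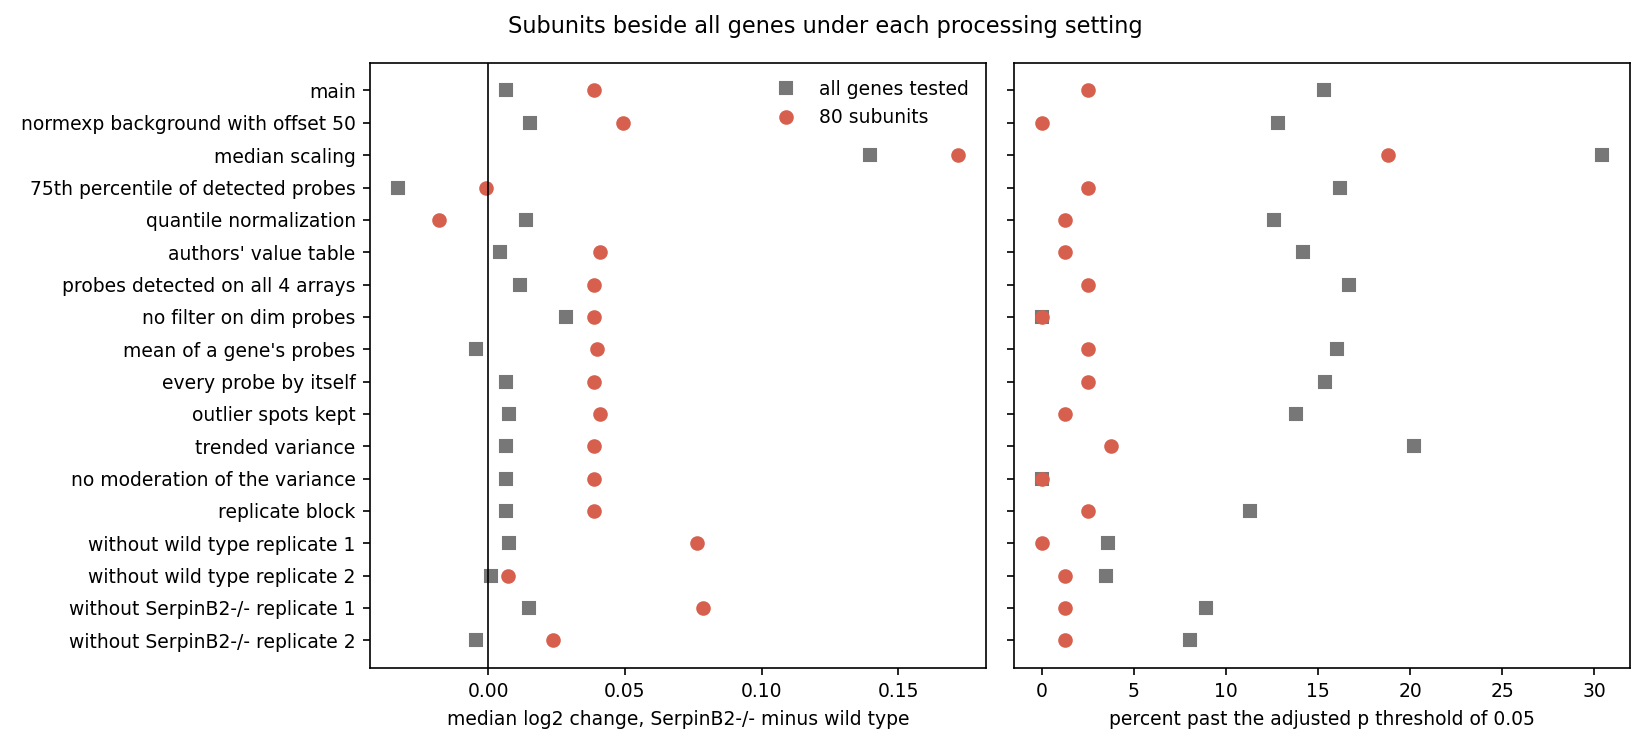
Left, the median log2 change of the 80 subunits (red circles) and of all genes tested (grey squares) under each setting; right, the percent of each past the adjusted p threshold of 0.05. The subunits' median moves between -0.02 (quantile normalization) and 0.17 (median scaling), changing sign, and their share past the threshold reaches 18.8% with median scaling, where 30.4% of all genes passed.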

How the data were processed

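RNA of 2 wild type and 2 SerpinB2-/- samples was labelled with Cy3, 1 sample per array. The deposited scanner intensity values were made with Agilent Feature Extraction 10.7.3.1, per the submitters' processing notes, which subtracts background, removes trends within the array and replaces dim values with surrogates, per the file headers. All 4 arrays were on 1 slide and in 1 scan, per the file headers. Each array held 39429 probes for transcripts, printed 4 times, and no saturated spot.

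Control and outlier spots were left out, spots of a probe were averaged, and each array's 75th percentile was subtracted on the log2 scale. Signals are printed on the linear scale after this step. Probes were kept where both arrays of at least 1 genotype had over 50% of spots well above background, and each gene was read from its brightest probe. Symbols came from a RefSeq table of GRCm38.p6 (28750 probes matched by accession, 222 by an older symbol). The test was that of limma 3.58.1 (lmFit and eBayes, in R 4.3.3), Benjamini-Hochberg adjustment over 18388 genes and a threshold of 0.05. Standard errors and intervals are limma's, with each gene's variance drawn towards a value shared by all genes. Precision is limited by the number of arrays.

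The authors' deposited table, also intensity values, was an alternative. Its columns had medians of 76, 77, 68 and 71, a 75th percentile of 1500, and followed the scanner values by factors of 0.698 to 0.786. Its scale is linear, no centring was found, and how it was made is not described. Members, lists and the rule for named genes were chosen with earlier results of these data known: called members, the strongest probe signal per complex, complex II, isoforms of complexes IV and the c ring, and called genes of related lists. Other members named with their values, such as the highest and lowest of a complex, were chosen after their values were seen. Values of 2 genes are not reported here.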

Additional observations from a re-analysis of the deposited data

How the results depend on the processing

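The count of subunits past the threshold was 2. It was 15 with median scaling, 1 with quantile normalization, with the authors' table or with outlier spots kept, and 0 with normexp background correction, without a filter on dim probes, without moderation of the variance or at a threshold of 0.01. Leaving out 1 array gave 0 to 1. The subunits' median of 0.04 became 0.17 with median scaling and -0.018 with quantile normalization, and 0.0073 to 0.079 when 1 array was left out (lowest without wild type replicate 2). The count over all genes, 2813, became 5585 with median scaling, 1 without a filter on dim probes, 389 at a threshold of 0.01, 4803 at 0.1, and 646 to 1643 when any 1 of the 4 arrays was left out (lowest without wild type replicate 2). It was 0 without moderation, where 4443 genes had an unadjusted p under 0.05 by an ordinary t-test. With limma's moderation 6260 genes had one. The labels do not say what the replicate numbers share. The differences between replicates correlated by 0.25 between genotypes over all genes. A replicate block called 2 subunits, Cox6a2 and Ndufa4l2, and 2084 genes, and ended the call of Ndufaf2 (adjusted p = 0.120). No named gene changed sign while called. The causes of these changes were not tested.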

Other observations

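Hif1a, which encodes the oxygen-regulated transcription factor subunit known to induce Ndufa4l2, was looked up after the values of Ndufa4l2 were seen. Its probe gave 2835 and 3209.6 units in wild type against 4124 and 4426 in SerpinB2-/- cells. It rose by 0.50 ± 0.09 on the log2 scale (limma adjusted p = 0.0270). Whether this bears on the value of Ndufa4l2 was not tested. Cox17, a copper chaperone of complex IV, had a log2 change of 0.49 ± 0.18 and did not pass the threshold (limma adjusted p = 0.133). Its probe was dim, with 109 and 97.4 units in wild type against 122 and 173 in SerpinB2-/- cells. The groups did not overlap, as for 64.2% of all genes.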
